A study of Mus musculus with 14 samples.

Results

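The transcripts described here are 10 markers of macrophages that live in the mouse heart, namely Cd163, Mrc1, Lyve1, Timd4, Folr2, F13a1, Cbr2, Pf4, Gas6 and Igf1. They were chosen by symbol among the 54532 genes counted in bulk RNA of heart tissue. They were read against 20 general myeloid markers, which macrophages of any origin share. All hearts came from male C57BL/6J mice labelled WT, aged 8 weeks at the start, and each library held 1 mouse. IRR_1d (n = 3) and IRR_6w (n = 4) received 30 Gy of cobalt γ-rays to the front of the chest under pentobarbital with the rest of the body behind lead, and were taken 1 day and 6 weeks later. Control_1d (n = 3) and Control_6w (n = 4) had no irradiation and were taken at the same times. The comparisons ask how the heart's immune transcripts differed early and late after local irradiation.

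Resident cardiac macrophages are seeded largely before birth, renew themselves in place, and clear dead cells and debris. After injury, blood monocytes that carry the chemokine receptor CCR2 enter the heart, mature there and can take up part of the resident programme. Genes such as Csf1r, Adgre1 and Cd68 mark both origins, while Timd4, Lyve1, Folr2 and Cd163 are used to mark the long-lived cells. In bulk RNA, fewer cells of a type and less RNA per cell cannot be told apart.

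Library totals ran from 13336746 to 16837265 counts, and levels are given as counts scaled to a common library size (CPM) with TMM, a factor that corrects for the makeup of each library. Genes of ventricular cardiomyocytes summed to 4212.7 to 36494.0 CPM over 6 genes, and all 6 were counted in every library. In 3 libraries genes of other tissues stood out. The 8 thymus genes summed to 3486.1 CPM in Control_6w replicate 3 and to at most 49.6 in any other heart. The 10 lung epithelium genes summed to 1062.1 CPM in IRR_6w replicate 1 and to at most 55.1 in any other. Genes of the atrium summed to 2841.3 CPM in IRR_6w replicate 1, to 1945.3 in IRR_1d replicate 3 and to at most 536.0 in the remaining 12. Some libraries also held more genes at 0 counts than the others. Of genes at 2 to 5 CPM in the other libraries, 38.8% had 0 counts in Control_1d replicate 1, 29.7% in IRR_6w replicate 3, 14.2% in IRR_6w replicate 4 and 7.58% in Control_6w replicate 1, against 0.109 to 3.92% in the remaining 10.

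All 10 markers were found and all passed the filter on low counts, which left 16034 genes for the test. Per kilobase of gene length (FPKM), Gas6 had the highest mean level over the 14 libraries at 116.4 FPKM (SD 92.1) and Folr2 the lowest at 2.29 (SD 1.91). Between them came Pf4 at 41.3, Cbr2 at 33.7, F13a1 at 21.4, Lyve1 at 18.9, Mrc1 at 15.9, Cd163 at 6.02, Igf1 at 5.46 and Timd4 at 2.38 FPKM. The ranges over libraries overlapped for every neighbouring pair in that order. Counts behind these values ran from 1300 to 14301 per library for Gas6 and from 0 to 205 for Timd4, so the spread of Timd4 and Folr2 rests on few counts.

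All comparisons used edgeR's quasi-likelihood test on the 14 libraries at once, and a DEG had to reach an adjusted p (Benjamini-Hochberg, 16034 genes) under 0.05 together with a fold above 2 or below 0.5. None of the 10 markers was a DEG in any comparison. Of all genes, 0.0249% were DEGs between IRR_1d and Control_1d, 0.256% between IRR_6w and Control_6w, 0% between Control_6w and Control_1d and 0.0374% between IRR_6w and IRR_1d. DESeq2 called 1 marker at 1 day (Gas6), with 0.187% of all genes, and 1 at 6 weeks (Mrc1), with 2.05%. Limma called 0 markers at both times, with 0% of all genes at 1 day and 0.112% at 6 weeks. At an unadjusted p under 0.05, with no fold limit, edgeR listed 3 markers at 1 day, where 2.90% of all genes passed, and 6 markers at 6 weeks, where 8.81% passed.

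**Figure D1:**
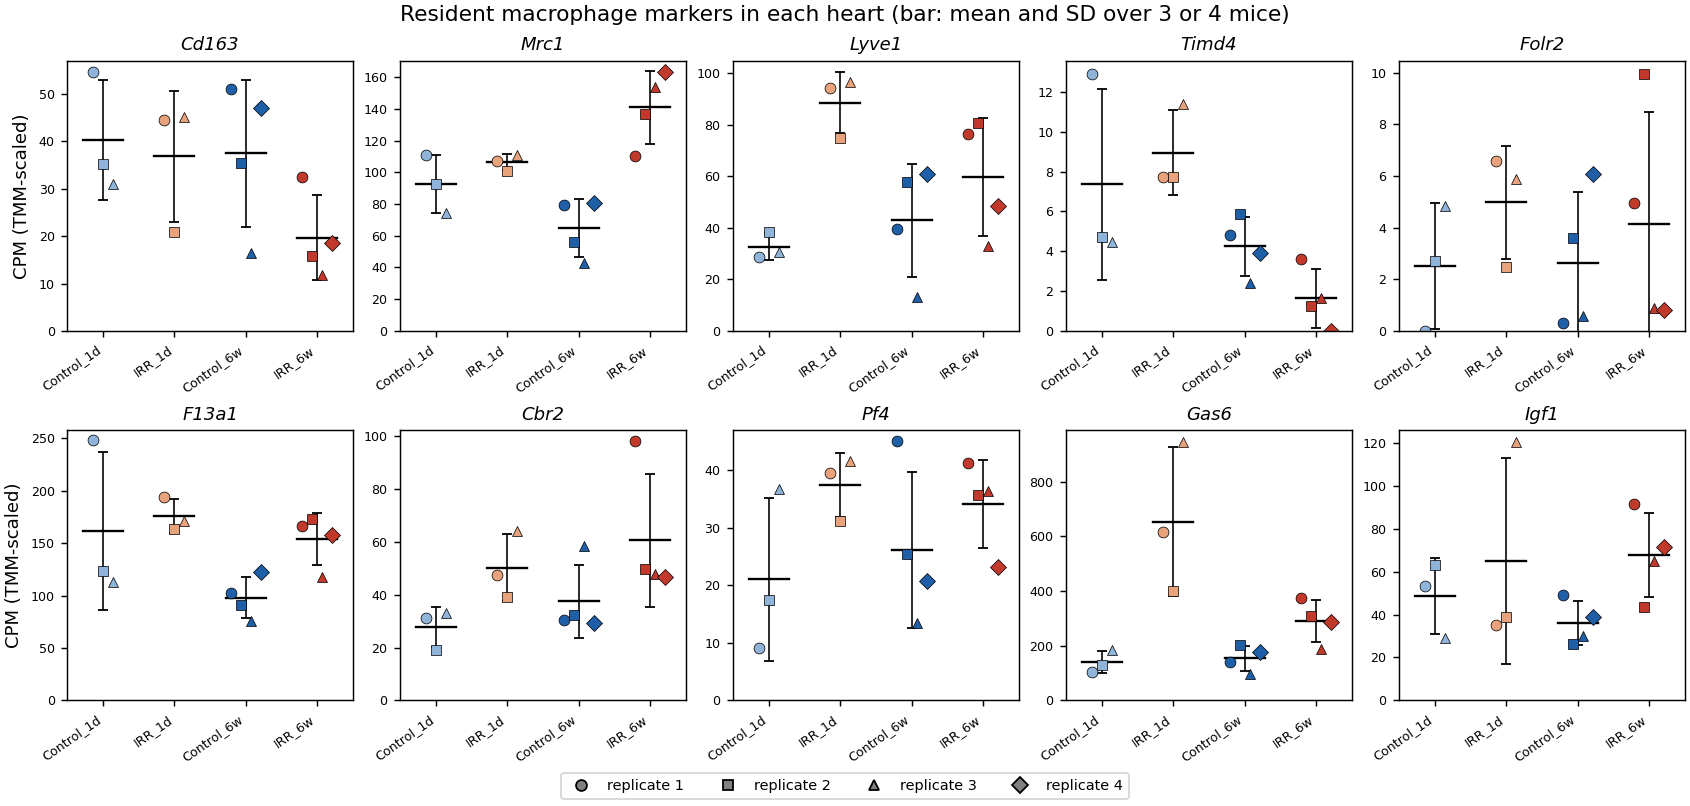
Level of each resident marker in TMM-scaled CPM (vertical axis, linear, own scale per gene) in the 14 hearts by group. Symbols are replicates, black lines the group mean, bars the SD. Gas6 and Lyve1 are higher in all 3 IRR_1d hearts than in all Control_1d hearts, and Mrc1 is higher in all 4 IRR_6w hearts (110.5 to 163.0 CPM) than in all Control_6w hearts (43.1 to 80.8 CPM). SD bars that would pass below 0 are clipped.

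Upstream sequences are shown for the 4 markers that the results turn on, namely Gas6 and Mrc1, which had the smallest p of the 10 at 1 day and at 6 weeks, and Cd163 and Timd4, the 2 with lower values at 6 weeks. Each is the 250 bases before the RefSeq start on GRCm38.p6, 5′ to 3′ on the gene's strand. They are chr8:13494536-13494785 (minus strand) for Gas6, chr2:14229164-14229413 (plus strand) for Mrc1, chr6:124304401-124304650 (plus strand) for Cd163 and chr11:46810549-46810798 (plus strand) for Timd4. Capitals mark GAGGAA on either strand, the core bound by the myeloid factor PU.1, and TGCTGA on either strand, the half-site of MAF factors. The letters of these motifs do not overlap each other.
Gas6: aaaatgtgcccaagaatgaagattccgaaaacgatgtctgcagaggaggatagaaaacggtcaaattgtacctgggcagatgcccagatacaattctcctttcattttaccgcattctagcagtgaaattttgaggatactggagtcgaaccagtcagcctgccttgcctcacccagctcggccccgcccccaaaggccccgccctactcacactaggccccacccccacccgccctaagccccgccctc
Mrc1: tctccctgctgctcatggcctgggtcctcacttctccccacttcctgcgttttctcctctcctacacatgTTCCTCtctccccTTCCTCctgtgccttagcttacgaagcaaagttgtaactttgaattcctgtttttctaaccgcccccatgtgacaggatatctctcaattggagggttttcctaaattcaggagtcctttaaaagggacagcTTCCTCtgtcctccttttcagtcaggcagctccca
Cd163: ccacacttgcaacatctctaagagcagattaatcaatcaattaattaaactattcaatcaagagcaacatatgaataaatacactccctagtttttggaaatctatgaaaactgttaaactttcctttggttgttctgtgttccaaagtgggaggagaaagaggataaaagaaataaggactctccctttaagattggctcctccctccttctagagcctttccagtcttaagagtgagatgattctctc
Timd4: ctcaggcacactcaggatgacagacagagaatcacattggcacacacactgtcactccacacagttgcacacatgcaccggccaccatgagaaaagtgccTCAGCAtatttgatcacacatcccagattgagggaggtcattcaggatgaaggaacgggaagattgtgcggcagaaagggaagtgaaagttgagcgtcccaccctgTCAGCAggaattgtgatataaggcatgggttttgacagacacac
The window of Mrc1 held 3 copies of GAGGAA, all on the opposite strand, and that of Timd4 held 2 copies of TGCTGA, also on the opposite strand. The windows of Cd163 and Gas6 held neither. Of the 10 markers, 9 had a window in the RefSeq table, and 5 of these held GAGGAA and 2 held TGCTGA in at least 1 window. Over all 32851 windows, 23.3% held GAGGAA and 16.1% held TGCTGA. A match describes the letters only.

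Among the receptors, Mrc1, the mannose receptor that takes up glycoproteins, had the smallest p of the 10 at 6 weeks. It lies on chromosome 2 at 14229392-14332057 (ENSMUSG00000026712, plus strand, mm10). Control_6w hearts held 79.2, 56.1, 43.1 and 80.8 CPM of Mrc1, and IRR_6w hearts 110.5, 136.7, 153.7 and 163.0. Every IRR_6w heart was above every Control_6w heart, as for 4.08% of all genes, and the log2 fold change was 1.12 (SE 0.241, edgeR adjusted p = 0.0709). Mrc1 passed the threshold without IRR_6w replicate 1 (1.22, edgeR adjusted p = 0.0484, with 0.627% of all genes), and also without the 3 libraries that held markers of other tissues (1.07, edgeR adjusted p = 0.0402, with 1.13% of all genes). It did so too with library totals in place of TMM (1.39, edgeR adjusted p = 0.0441, with 0.518% of all genes) and in DESeq2 (1.13, adjusted p = 0.000488). Over the 22 alternatives tried the adjusted p (edgeR, DESeq2 or limma) ran from 0.000488 to 0.271, and 4 passed. At 1 day Mrc1 held 110.9, 92.7 and 74.1 CPM in Control_1d against 107.4, 100.8 and 111.0 in IRR_1d. Those groups overlapped (log2 fold change 0.20, SE 0.276, edgeR adjusted p = 1.00). The effect at 6 weeks exceeded that at 1 day by 0.92 (SE 0.365, edgeR unadjusted p = 0.0242, adjusted p = 0.990).

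Cd163, the receptor that clears haemoglobin bound to haptoglobin, had the opposite sign at 6 weeks. The gene spans chromosome 6 at 124304656-124330527 (ENSMUSG00000008845, plus strand, mm10). Control_6w hearts held 51.1, 35.4, 16.4 and 47.0 CPM of Cd163 and IRR_6w hearts 32.5, 15.8, 11.8 and 18.5. Control_6w replicate 3 lay below IRR_6w replicates 1 and 4, the other 3 controls lay above all IRR_6w hearts, and the log2 fold change was -0.93 (SE 0.399, edgeR unadjusted p = 0.0346, adjusted p = 0.510). Without the 3 libraries that held markers of other tissues it was -1.53 (edgeR adjusted p = 0.0527), the smallest p of the 22 alternatives, whose adjusted p (edgeR, DESeq2 or limma) reached 0.830. IRR_6w replicate 2, where 0.736% of low genes were empty, held 15.8 CPM, and replicates 3 and 4, with 29.7% and 14.2% empty, held 11.8 and 18.5. The part of empty genes in the Cd163 difference was not tested. At 1 day the log2 fold change of Cd163 was -0.13 (SE 0.456, edgeR adjusted p = 1.00), with 54.7, 35.3 and 31.0 CPM in Control_1d and 44.5, 20.9 and 45.2 in IRR_1d. Those groups overlapped.

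Timd4, the phosphatidylserine receptor by which resident macrophages bind dying cells, was the least abundant receptor beside Folr2. The gene spans chromosome 11 at 46810800-46844332 (ENSMUSG00000055546, plus strand, mm10). Control_6w hearts held 4.80, 5.89, 2.39 and 3.91 CPM of Timd4, and IRR_6w hearts 3.62, 1.26, 1.65 and 0.00. The last value is 0 counts, which by counting alone allows up to 3 counts or 0.143 CPM, and that limit does not cover IRR_6w replicate 4, where 14.2% of low genes were empty. In all, 3 of the 4 IRR_6w hearts lay below every Control_6w heart, and the log2 fold change was -1.37 (SE 0.879, edgeR adjusted p = 0.712). It was -2.13 without IRR_6w replicate 1 (edgeR adjusted p = 0.509) and -0.96 without IRR_6w replicate 4 (edgeR adjusted p = 0.831), and over the 22 alternatives the adjusted p (edgeR, DESeq2 or limma) was 0.434 to 0.883. At 1 day Timd4 held 12.9, 4.73 and 4.47 CPM in Control_1d and 7.73, 7.72 and 11.4 in IRR_1d, and the groups overlapped (log2 fold change 0.28, SE 0.988, edgeR adjusted p = 1.00). Without Control_1d replicate 1 that value was 0.96. From IRR_1d to IRR_6w Timd4 was lower by a log2 fold change of -2.45 (SE 0.944, edgeR unadjusted p = 0.0207, adjusted p = 0.752). That value was -3.21 without IRR_6w replicate 1, -2.03 without IRR_6w replicate 4 and -3.88 in limma.

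Lyve1, a hyaluronan receptor of resident macrophages and of lymphatic endothelium, had its larger difference at 1 day, short of the threshold. It lies on chromosome 7 at 110850607-110863239 (ENSMUSG00000030787, minus strand, mm10). Control_1d hearts held 28.8, 38.5 and 30.4 CPM of Lyve1 and IRR_1d hearts 94.1, 74.8 and 96.3. The groups did not overlap, and the log2 fold change was 1.44 (SE 0.462, edgeR unadjusted p = 0.00728, adjusted p = 1.00). The 6 other lymphatic genes listed, all counted in every library, summed to 151.8 to 168.3 CPM in Control_1d and 166.0 to 198.2 in IRR_1d. Their median log2 fold change at 1 day was 0.48, with 4 of 6 higher and 0 DEGs. Mmrn1, a lymphatic secreted protein, had the smallest p of them (1.54, SE 0.522, edgeR adjusted p = 1.00). The share of lymphatic endothelium in the Lyve1 difference was not tested. At 6 weeks Lyve1 held 39.4, 57.8, 13.3 and 60.7 CPM in Control_6w and 76.3, 80.6, 33.0 and 48.5 in IRR_6w. The groups overlapped widely (log2 fold change 0.48, SE 0.393, edgeR adjusted p = 0.781). Of the lymphatic genes 5 of 6 were higher at 6 weeks (median 0.42), and Ccl21a, a lymphatic chemokine, had the smallest p and was lower (-3.14, SE 1.28, edgeR adjusted p = 0.473).

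Folr2, the folate receptor of resident macrophages, was counted at 0 to 165 per library. Its position is chromosome 7 at 101839988-101857194 (ENSMUSG00000032725, minus strand, mm10), and Gm10602 on the other strand overlaps 63.1% of its exonic sequence, so its counts are uncertain where strand was not used in counting. Folr2 held 0.00, 2.72 and 4.85 CPM in Control_1d and 6.57, 2.49 and 5.88 in IRR_1d. At 6 weeks it held 0.304, 3.60, 0.570 and 6.06 CPM in Control_6w and 4.95, 9.94, 0.890 and 0.808 in IRR_6w. Groups overlapped at both times, with log2 fold changes of 0.98 (SE 1.39, edgeR adjusted p = 1.00) at 1 day and 0.65 (SE 1.20, edgeR adjusted p = 0.911) at 6 weeks. The 1-day value was 0.40 without Control_1d replicate 1, 1.92 without Control_1d replicate 3 and 2.90 in limma. Of its 5 values under 1 CPM, 4 were in the 4 libraries with the most empty genes, and the fifth was in Control_6w replicate 3.

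Among the secreted factors, Gas6, the ligand that bridges dying cells to the receptors MERTK, AXL and TYRO3, had the smallest p of the 10 at 1 day. It lies on chromosome 8 at 13465374-13494490 (ENSMUSG00000031451, minus strand, mm10). Control_1d hearts held 103.4, 130.9 and 183.1 CPM of Gas6, and IRR_1d hearts 614.6, 401.8 and 945.0. The lowest IRR_1d heart stood above the highest Control_1d heart. The log2 fold change was 2.23 (SE 0.394, edgeR unadjusted p = 5.25e-05, adjusted p = 0.168), or 4.70-fold. Without Control_6w replicate 3, which is in neither group but enters the shared estimate of the spread, the edgeR adjusted p was 0.0399, and 0.0706% of all genes were DEGs. It was 0.0367 with no filter on low counts, where 0.0269% were, and 1.32e-05 in DESeq2. Without IRR_1d replicate 3 the log2 fold change was 1.87 (edgeR adjusted p = 0.777). Over the 22 alternatives the adjusted p of Gas6 (edgeR, DESeq2 or limma) ran from 1.32e-05 to 1.00, and 3 passed.

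At 6 weeks Gas6 held 140.1, 202.9, 97.8 and 177.1 CPM in Control_6w and 373.8, 306.8, 188.1 and 286.2 in IRR_6w. One IRR_6w heart lay within the control range, and the log2 fold change was 0.90 (SE 0.329, edgeR adjusted p = 0.387). All 4 IRR_6w hearts were below all 3 IRR_1d hearts (log2 fold change -1.18, SE 0.350, edgeR unadjusted p = 0.00445, adjusted p = 0.530). The effect at 6 weeks was smaller than that at 1 day by a log2 difference of -1.33 (edgeR unadjusted p = 0.0184, adjusted p = 0.990). Between IRR_6w and IRR_1d, Gas6 and Timd4 were the 2 markers lower without overlap, as were 3.84% of all genes. At an unadjusted p under 0.05, 3 markers passed between those groups (Timd4, Gas6 and Cd163, with 5.79% of all genes), 1 marker between the controls (F13a1, 5.28% of all genes) and 2 in the change in effect (Mrc1 and Gas6, 3.14% of all genes, of which 0% were DEGs).

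Gas6 and Igf1 are transcribed by fibroblasts too, and the 8 fibroblast genes listed had higher values in irradiated hearts too, 8 of 8 at 1 day and 7 of 8 at 6 weeks. These 8 genes, all counted in every library, summed to 2183.3 to 2894.4 CPM in Control_1d and 2476.5 to 5676.3 in IRR_1d, the highest value being that of IRR_1d replicate 3, where Gas6 was highest. At 6 weeks they summed to 1049.3 to 2241.1 CPM in Control_6w and 2529.5 to 4030.4 in IRR_6w, without overlap. Their median log2 fold change was 0.86 at 1 day and 1.23 at 6 weeks, with 0 DEGs. Lum, a matrix proteoglycan, had the smallest p at 1 day (0.93, SE 0.349, edgeR adjusted p = 1.00) and Col3a1, a fibrillar collagen, at 6 weeks (1.57, SE 0.371, edgeR adjusted p = 0.109). The part of fibroblasts in the Gas6 and Igf1 levels was not tested.

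Of the partners listed for the 10 markers, 15 of 19 were tested, 11 were higher at 1 day and 15 at 6 weeks, with median log2 fold changes of 0.69 and 0.70 and 0 DEGs at both times. Pros1, the other ligand of the Gas6 receptors, had the smallest p of them at both times (1.01, SE 0.340 at 1 day with an edgeR adjusted p of 1.00, and 1.19, SE 0.296 at 6 weeks with an edgeR adjusted p of 0.124). The receptors of Gas6 are named here after their values were seen. Mertk had log2 fold changes of 0.08 (SE 0.360) at 1 day and 1.01 (SE 0.314, edgeR adjusted p = 0.253) at 6 weeks, Axl 0.46 (SE 0.312) and 0.30 (SE 0.270), and Tyro3 0.75 (SE 1.25) and 0.24 (SE 1.08).

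Igf1, a growth factor for cardiomyocytes, held 53.4, 63.4 and 29.3 CPM in Control_1d and 35.4, 39.0 and 120.8 in IRR_1d. Its position is chromosome 10 at 87858265-87937042 (ENSMUSG00000020053, plus strand, mm10). The high IRR_1d value was that of replicate 3 alone, and without the 3 libraries with markers of other tissues the log2 fold change at 1 day turned from 0.42 (SE 0.456) to -0.39. At 6 weeks Igf1 held 49.2, 26.5, 29.9 and 38.9 CPM in Control_6w and 91.5, 43.8, 64.9 and 71.6 in IRR_6w. Replicates 1, 3 and 4 of IRR_6w were above the control range, with a log2 fold change of 0.91 (SE 0.398, edgeR unadjusted p = 0.0373, adjusted p = 0.520).

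Pf4, a chemokine that platelets store and resident macrophages also transcribe, held 9.03, 17.5 and 36.7 CPM in Control_1d and 39.5, 31.1 and 41.6 in IRR_1d. The gene spans chromosome 5 at 90772435-90773383 (ENSMUSG00000029373, plus strand, mm10). The groups overlapped (log2 fold change 0.83, SE 0.476, edgeR adjusted p = 1.00). The 1-day value of Pf4 was 0.47 without Control_1d replicate 1 and 1.53 without Control_1d replicate 3. At 6 weeks it held 45.0, 25.4, 13.4 and 20.7 CPM in Control_6w and 41.2, 35.7, 36.4 and 23.2 in IRR_6w, again with overlap (0.39, SE 0.409, edgeR adjusted p = 0.834). The 10 platelet and megakaryocyte genes listed summed to 14.4 to 210.8 CPM over the libraries, with 1 to 7 of them at 0 counts in each. Itgb3, a platelet integrin, had the smallest p of them at 6 weeks (2.33, SE 0.602, edgeR adjusted p = 0.136), and Treml1, a platelet receptor, at 1 day (2.09, SE 1.99, edgeR adjusted p = 1.00). Of the 9 platelet genes tested, 8 were higher at 1 day (median log2 fold change 0.69) and 8 at 6 weeks (median 1.56), with 0 DEGs, and their part in the Pf4 values was not tested.

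Among the enzymes, F13a1, the catalytic subunit of coagulation factor XIII, held 248.8, 123.2 and 112.9 CPM in Control_1d and 194.1, 163.4 and 170.7 in IRR_1d. It lies on chromosome 13 at 36867178-37050244 (ENSMUSG00000039109, minus strand, mm10). The 1-day groups overlapped (log2 fold change 0.12, SE 0.309, edgeR adjusted p = 1.00). At 6 weeks F13a1 held 102.2, 91.0, 75.6 and 122.2 CPM in Control_6w and 166.2, 173.0, 118.0 and 157.4 in IRR_6w. Only IRR_6w replicate 3 lay within the control range, and the log2 fold change was 0.65 (SE 0.269, edgeR unadjusted p = 0.0288, adjusted p = 0.479). Control_6w was lower than Control_1d by value, with a log2 fold change of -0.73 (SE 0.287, edgeR unadjusted p = 0.0237, adjusted p = 0.902). Without Control_1d replicate 1, the heart with 248.8 CPM, that value was -0.27.

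Cbr2, a carbonyl reductase that is abundant in lung and also made in fat and in resident macrophages, held 31.1, 19.0 and 33.0 CPM in Control_1d and 47.5, 39.1 and 64.2 in IRR_1d. Its position is chromosome 11 at 120729489-120732114 (ENSMUSG00000025150, minus strand, mm10). The 1-day groups did not overlap (log2 fold change 0.86, SE 0.373, edgeR unadjusted p = 0.0369, adjusted p = 1.00). The 10 fat genes summed to 78.0 to 355.1 CPM in Control_1d and 262.0 to 914.4 in IRR_1d, and 9 of 10 were higher at 1 day (median log2 fold change 3.06, 0 DEGs). With Lyve1 and Gas6 it made 3 of 10 markers higher without overlap at 1 day, against 6.52% of all genes, and 0 of 10 lower, against 4.14%. At 6 weeks Cbr2 held 30.3, 32.4, 58.3 and 29.2 CPM in Control_6w and 98.3, 49.7, 47.7 and 46.6 in IRR_6w. The highest control and the highest irradiated heart were Control_6w replicate 3 and IRR_6w replicate 1, the libraries with the most fat transcripts (1366.4 and 3114.8 CPM over 10 genes) and the most lung epithelium transcripts (55.1 and 1062.1 CPM). In IRR_6w replicates 3 and 4 the fat genes summed to 70.5 and 16.9 CPM, with 7 and 8 of 10 at 0 counts, and Cbr2 was 47.7 and 46.6 CPM. These are among the libraries with many empty genes, so a fat gene at 0 counts there says little. The log2 fold change at 6 weeks was 0.69 (SE 0.321, edgeR unadjusted p = 0.0497, adjusted p = 0.567), 0.98 without Control_6w replicate 3 and 0.35 without IRR_6w replicate 1. The part of lung and fat RNA in the Cbr2 differences at both times was not tested.

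**Figure D2:**
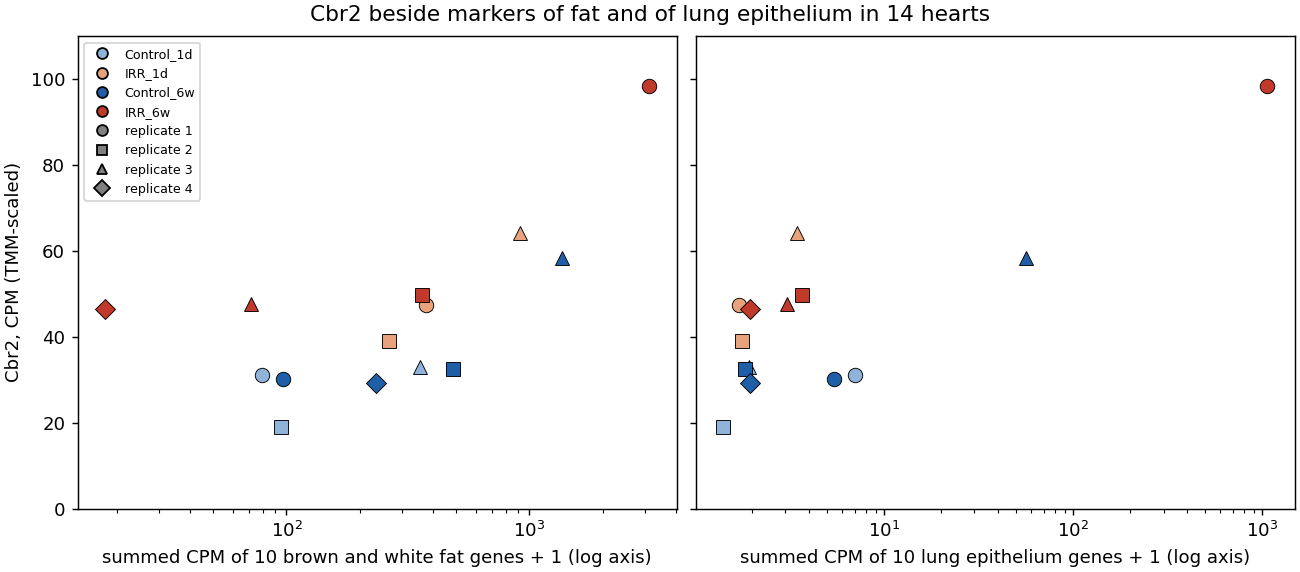
Cbr2 level (vertical axis, TMM-scaled CPM) in each of the 14 hearts against the summed CPM of 10 fat genes (left) and of 10 lung epithelium genes (right), each plus 1 on a log axis. Colours are groups and symbols replicates. The highest Cbr2 value, 98.3 CPM in IRR_6w replicate 1, lies at the highest fat and lung sums, while IRR_6w replicates 3 and 4 hold 47.7 and 46.6 CPM at low sums.

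The 20 general myeloid markers were read beside the resident ones. At 6 weeks 19 of 20 were higher in IRR_6w, with a median log2 fold change of 1.05 where the median of all genes was -0.09, and 1 was a DEG. At 1 day 13 of 20 were higher, with a median of 0.32 against 0.06 for all genes. Genes of heart chambers differed by value as well. At 6 weeks the 6 ventricular cardiomyocyte genes were all lower in IRR_6w (median log2 fold change -0.74). The 5 atrial genes were all higher (median 2.43), and either list held 0 DEGs. The atrial sums overlapped, at 9.88 to 2841.3 CPM in IRR_6w and 13.5 to 333.9 in Control_6w. The highest sum was that of IRR_6w replicate 1, so the atrial fold changes lean on that library. Genes of other cells that share some of these markers had mostly positive log2 fold changes at 6 weeks. Of neutrophil genes 7 of 7 tested were higher (median 1.06). Of the 8 alveolar macrophage genes 5 were tested and 4 were higher (median 1.24). Their sum was 2.38 to 52.6 CPM in IRR_6w (mean 18.5) and 20.2 to 39.2 in Control_6w (mean 27.6), so it was not higher on average. Of skin and mesothelium genes 4 of 5 were higher (median 1.37). Their sums overlapped, at 25.1 to 337.5 CPM in IRR_6w and 37.4 to 64.8 in Control_6w. Of liver genes 1 of 2 was higher, and these lists held 0 DEGs as well. The part of tissue and cell makeup in the macrophage values was not tested. Ctss, a lysosomal protease of phagocytes, rose at 6 weeks from 29.6 CPM (SD 3.43, n = 4) to 93.9 CPM (SD 20.5, n = 4), by 1.66 on the log2 scale (SE 0.257, edgeR adjusted p = 0.0188). Ctss stayed a DEG in 9 of the 14 fits that leave out 1 library, at log2 fold changes of 1.51 to 1.75 and edgeR adjusted p of 0.0122 to 0.115. The call was lost when replicate 1 or 2 of Control_6w or replicate 2, 3 or 4 of IRR_6w was left out. At 1 day Cx3cr1, the fractalkine receptor, had the smallest p of the 20 and was lower (-1.84, SE 0.556, edgeR adjusted p = 1.00). The resident markers at 6 weeks had 8 of 10 higher, with a median of 0.65, and at 1 day 9 of 10 higher, with a median of 0.62. At 6 weeks 1 of 10 resident markers (Mrc1) and 9 of 20 general markers were higher without overlap, against 4.08% of all genes, and 0 of either list were lower, against 1.64%.

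**Figure D3:**
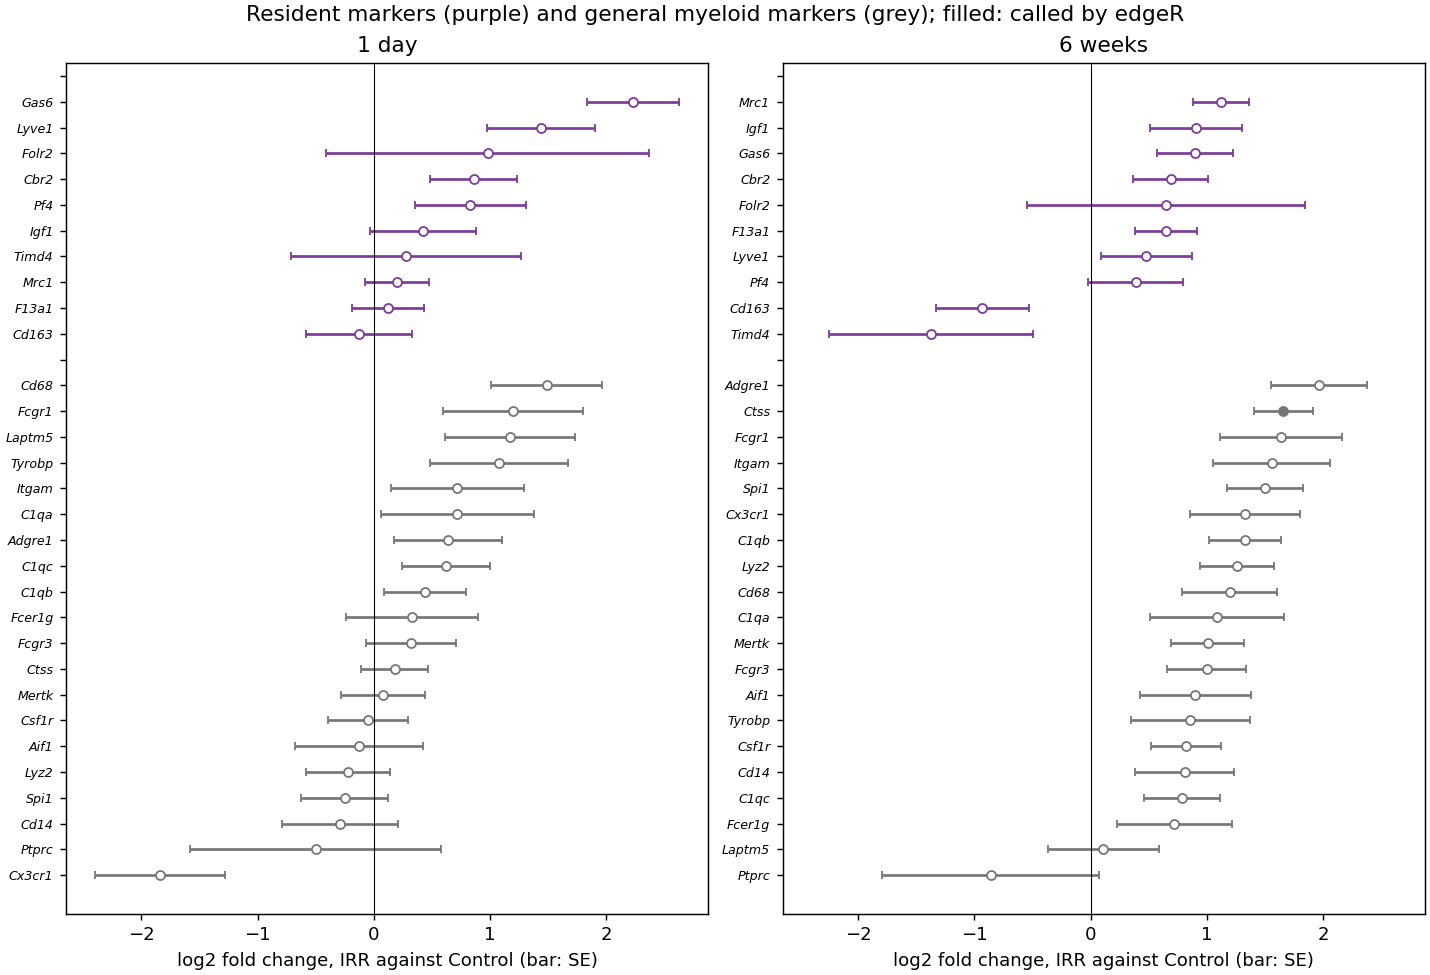
Log2 fold change of irradiated against control hearts (horizontal axis, bars are the SE) for the 10 resident markers (purple) and the 20 general myeloid markers (grey), at 1 day (left) and 6 weeks (right), sorted within each list. Filled symbols passed the edgeR threshold, which is Ctss at 6 weeks only. Cd163 and Timd4 lie below 0 at 6 weeks while 19 of 20 general markers lie above.

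Counts of each marker per 1000 counts of the 20 general markers do not depend on library scaling. At 1 day Gas6 was 4.16 times, Lyve1 2.38 times and Cbr2 1.66 times as high per general count in IRR_1d as in Control_1d, each without overlap, as were 3.54% of all genes. At 6 weeks 9 of 10 markers had a lower mean per general count in IRR_6w, all but Mrc1 (1.10 times), and so did 88.5% of all genes. Cd163 was 64.0, 40.1, 12.4 and 54.4 per 1000 in Control_6w and 21.6, 8.07, 6.75 and 9.75 in IRR_6w, a mean of 0.270 times the control. Timd4 was 6.01, 6.66, 1.81 and 4.53 per 1000 in Control_6w and 2.41, 0.645, 0.949 and 0.00 in IRR_6w, a mean of 0.211 times the control. For both genes the overlap came from Control_6w replicate 3, the library with thymus genes, lying below IRR_6w replicate 1, the library with lung epithelium genes. Ptprc, a general marker that lymphocytes also carry, was 747.7 CPM there and 14.5 to 156.0 CPM in the other 13 libraries, and the part of thymus RNA in this ratio was not tested. None of the 10 was lower without overlap on this scale, against 25.1% of all genes.

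Per 1000 counts of Csf1r, Adgre1, Cd68 and Fcgr1 alone, all 10 markers had a lower mean in IRR_6w than in Control_6w, as did 94.7% of all genes, so this count is set by the scale. Cd163 was 375.9, 284.4, 314.1 and 341.0 in Control_6w and 168.7, 58.0, 43.5 and 53.1 in IRR_6w. Timd4 was 35.3, 47.3, 45.8 and 28.4 in Control_6w and 18.8, 4.63, 6.12 and 0.00 in IRR_6w. These were the 2 markers lower without overlap, against 42.2% of all genes. The 4 genes of the denominator were themselves higher in IRR_6w, as for Adgre1 with 28.2 CPM (SD 12.3, n = 4) in Control_6w and 110.4 CPM (SD 55.0, n = 4) in IRR_6w. The means were 0.246 and 0.189 times the control. A count of 2 in 10 is below that background share.

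**Figure D4:**
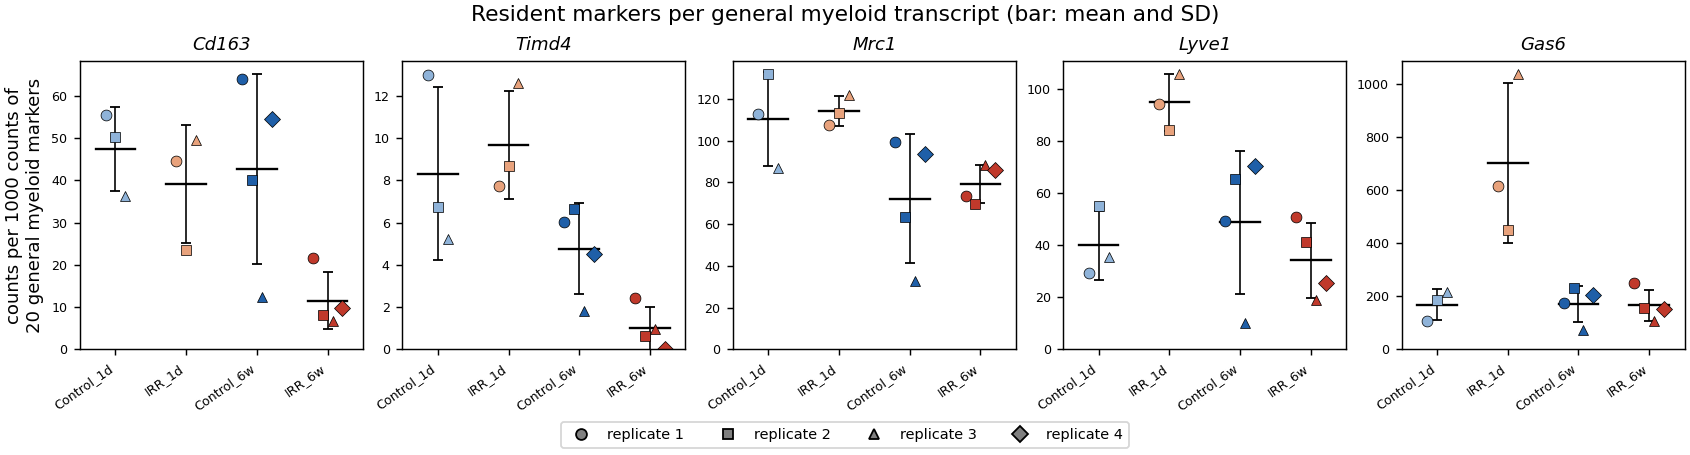
Counts of Cd163, Timd4, Mrc1, Lyve1 and Gas6 per 1000 counts of the 20 general myeloid markers (vertical axis, linear, own scale per gene) in the 14 hearts by group. Symbols are replicates, lines the mean, bars the SD, clipped at 0. Gas6 and Lyve1 are highest in IRR_1d, and Cd163 and Timd4 are lowest in IRR_6w, with Control_6w replicate 3 inside the IRR_6w range.

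The mean log2 CPM of the 10 resident markers minus that of the 20 general markers, given as a description, was 0.51, 0.91 and 0.56 in Control_1d and 1.21, 0.96 and 1.33 in IRR_1d. It was 0.63, 0.57, 0.11 and 0.71 in Control_6w and 0.57, -0.40, -0.63 and -0.78 in IRR_6w. The level of 0 depends on which genes each list holds, so only differences between hearts can be read. IRR_6w replicates 2, 3 and 4 lay below the other 11 hearts, and IRR_6w replicate 1 lay within the range of Control_6w. In IRR_6w replicates 3 and 4, 29.7% and 14.2% of low genes were empty, against 0.736% in replicate 2. The part of empty genes in the score was not tested. The resident mean itself was 4.78 (SD 0.440, n = 4) in Control_6w and 5.10 (SD 0.494, n = 4) in IRR_6w, while the general mean was 4.27 (SD 0.190, n = 4) and 5.41 (SD 0.252, n = 4). The group difference of the score was 0.51 at 1 day and -0.82 at 6 weeks. With Csf1r, Adgre1, Cd68 and Fcgr1 as the general list it was 0.01 at 1 day and -1.06 at 6 weeks.

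**Figure D5:**
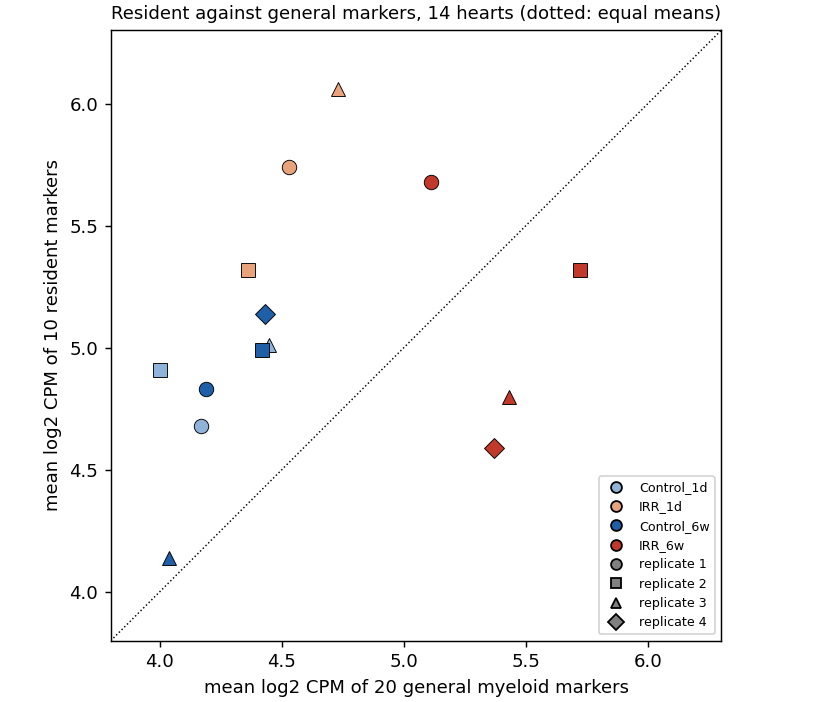
Mean log2 CPM of the 10 resident markers (vertical axis) against that of the 20 general myeloid markers (horizontal axis) in the 14 hearts. Colours are groups, symbols replicates, and the dotted line of equal means is only a guide, since its place depends on the genes in each list. IRR_6w replicates 2, 3 and 4 have the lowest resident mean relative to the general mean of the 14 hearts. Of these, replicates 3 and 4 are libraries with many empty genes.

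Other macrophage and monocyte genes gave the setting of these values. Of 18 further resident macrophage genes 17 were tested, and 12 were higher and 5 lower at 6 weeks, with a median log2 fold change of 0.73. One of them was a DEG. Siglec1, a sialic acid receptor that interferon also induces, rose at 6 weeks from 4.68 CPM (SD 3.22, n = 4) to 56.3 CPM (SD 22.7, n = 4), by 3.59 on the log2 scale (SE 0.513, edgeR adjusted p = 0.0188). It stayed a DEG in 10 of 14 fits with a library left out (3.31 to 4.04), and lost the call when replicate 1 or 2 of Control_6w or replicate 3 or 4 of IRR_6w was left out. At 1 day Siglec1 had the smallest p of these genes too (2.24, SE 0.559, edgeR adjusted p = 0.741). Of 10 recruited monocyte markers 9 were higher at 6 weeks, with a median of 1.53, and Ccr2 rose from 6.06 CPM (SD 1.31, n = 4) to 68.3 CPM (SD 30.3, n = 4), by 3.49 on the log2 scale (SE 0.569, edgeR adjusted p = 0.0250). Ccr2 stayed a DEG in 9 of 14 such fits (3.18 to 3.66), and lost the call when replicate 1, 2 or 4 of Control_6w or replicate 3 or 4 of IRR_6w was left out (highest edgeR adjusted p = 0.126). At 1 day 5 of these 10 were higher and 0 passed an unadjusted p under 0.05. Ly6c2, a surface marker of inflammatory monocytes, had the smallest p at that time (2.95, SE 1.53, edgeR adjusted p = 1.00).

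The 7 genes of MHC class II antigen presentation are carried by recruited macrophages at high levels and by the Timd4 and Lyve1 cells at low levels. All 7 were lower at 1 day (median -1.22) and higher at 6 weeks (median 0.97). At 1 day 0 were DEGs and 5 of 7 were lower without overlap, against 4.14% of all genes. The smallest p at 1 day was that of H2-Eb1 (-1.43, SE 0.295, edgeR adjusted p = 0.365). Bulk RNA does not show which cells held these transcripts, and the part of cells other than macrophages was not tested. H2-Eb1, the β chain of I-E, rose at 6 weeks from 77.1 CPM (SD 12.8, n = 4) to 196.7 CPM (SD 45.1, n = 4), by 1.35 on the log2 scale (SE 0.253, edgeR adjusted p = 0.0468). That call held in 3 of 14 fits with a library left out, namely without Control_1d replicate 1, IRR_1d replicate 3 or IRR_6w replicate 1, while the value stayed between 1.25 and 1.51 (highest edgeR adjusted p = 0.164). From IRR_1d to IRR_6w all 7 were higher with an unadjusted p under 0.05, against 5.79% of all genes in either direction, and 4 of the 7 rose as DEGs, H2-Eb1 by 3.32 (SE 0.307, edgeR adjusted p = 0.000311), H2-Aa by 3.11 (SE 0.296, edgeR adjusted p = 0.000311), H2-Ab1 by 3.03 (SE 0.337, edgeR adjusted p = 0.00149) and Cd74 by 2.60 (SE 0.317, edgeR adjusted p = 0.00340). The 3 H2 genes stayed DEGs with any of the 14 libraries left out, and Cd74 in 12 of 14 fits, not without IRR_1d replicate 1 or 2 (highest edgeR adjusted p = 0.102). These groups also differ in the time kept, and from Control_1d to Control_6w all 7 were higher by value (median 0.61, 0 DEGs, and 2 of 7 without overlap against 3.39% of all genes). In the change in irradiation effect from 1 day to 6 weeks all 7 were positive (median 2.16) and 0 were DEGs by edgeR, 6 having an unadjusted p under 0.05, with H2-Eb1 at 2.79 (SE 0.389, edgeR adjusted p = 0.0673). From IRR_1d to IRR_6w 7 of the 10 resident markers were lower and 3 higher (median -0.23, 0 DEGs). Timd4 and Gas6 had the negative values given above, and Lyve1 differed by -0.57 on the log2 scale (SE 0.420, edgeR adjusted p = 0.999). The 3 higher were Mrc1 (0.41), Cbr2 (0.27) and Igf1 (0.06). Of the 17 further resident macrophage genes tested, 12 were higher and 5 lower (median 0.43). A list of 7 genes held CSF1R with its ligands, and also genes of GM-CSF and G-CSF signalling. Of these 6 were tested and 5 were higher at each time, with medians of 0.29 at 1 day and 0.92 at 6 weeks and 0 DEGs. Csf2ra, a receptor subunit for GM-CSF, had the smallest p at 6 weeks (1.24, SE 0.368, edgeR adjusted p = 0.219) and Csf3r, the G-CSF receptor, at 1 day (1.67, SE 0.782, edgeR adjusted p = 1.00).

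The 10 markers did not move as 1 block over the 14 libraries. The median Pearson r over their 45 pairs was 0.25, with 35 pairs above 0, and values ran from -0.38 to 0.85. Lyve1 and Gas6 had the highest r (0.85 over all libraries, 0.72 after group means were removed), followed by Mrc1 with F13a1 (0.71 and 0.55). Cd163 and Timd4 had an r of 0.63 with each other over all libraries and 0.35 after group means were removed. With the mean of the other 9 markers over all libraries, Cd163 had an r of 0.11 and Timd4 of 0.06, where Gas6 reached 0.85 and Lyve1 0.84. After group means were removed Cd163 had higher values with several markers, 0.69 with Lyve1 (0.25 over all libraries), 0.68 with F13a1 (0.25), 0.59 with Gas6 (0.06), 0.50 with Igf1 (0.06) and 0.46 with Mrc1 (-0.22). The libraries of a pair share depth and tissue makeup, so these values are a description. Outside the 10, the genes whose log2 CPM over the 14 libraries was most like the mean of the standardised markers were Fbln1, Ahnak2, Sulf2, Serpina3n, Epha7, Vwf, Serping1, Lrp1, Timp2 and Ntn4, with r from 0.94 to 0.90.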

How the data were processed

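The authors trimmed reads with Trim Galore 0.6.1 after FastQC 0.11.8, aligned them with STAR 2.5.0a to the mm10 transcriptome and counted them with HTSeq. They deposited 1 table of whole-number counts, not normalised, with a length per gene. Strandedness was not given in the sources used here. The test was edgeR 4.0.16 under R 4.3.3 (filterByExpr, TMM, quasi-likelihood fit of 4 groups), and DESeq2 1.42.0 and limma 3.58.1 were alternatives. CPM is the count over the TMM-scaled library size, and FPKM divides that by the deposited length. Scripts were tested on simulated data. SEs are the log2 fold change over the root of F. The score used a prior count of 2. P-values measure the spread between these mice.

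The markers and gene lists were chosen with earlier results of these data known. Named besides the markers were, of each other list, the gene with the smallest p at 1 day and at 6 weeks and any DEG, and the 10 genes most like the markers' mean. As exceptions, lists of other tissues and of neutrophils are given by sums, counts or medians without naming genes, and Mertk, Axl, Tyro3, Ptprc and Adgre1 were named after their values were seen. The comparisons share control or irradiated libraries. Fits were repeated under other scaling, filters, tools, groups and without each library. Replicate numbers did not pair the libraries. Upstream sequences came from RefSeq (GRCm38.p6), and overlaps from GENCODE M21.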

Additional observations from a re-analysis of the deposited data

Results flagged for a closer look

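Cbr2 stood far from its group in 2 libraries. It was 58.3 CPM in Control_6w replicate 3, with a gap to the nearest library of 0.888 of the group's range, and 98.3 CPM in IRR_6w replicate 1, with a gap of 0.940. Both exceed Dixon's 95% critical value for 4 samples. Chance gives such a flag in about 1 of 20 tests. Over the 2 groups of 4 libraries 22 tests were run, so 2 flags are near the number chance gives. These are the libraries with the most fat and lung epithelium transcripts, and the part of that RNA in the Cbr2 values was not tested.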

How the results depend on the processing

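Of the markers' refitted log2 fold changes, 1048 kept their direction and side of the threshold, 35 changed sign and 7 passed the threshold. At 1 day 0 markers were called by edgeR. The count was 1 in DESeq2 (Gas6), 1 with no filter on low counts (Gas6) and 0 to 1 when each library was left out. At an unadjusted p under 0.05 with the same fold limit 2 passed (Lyve1 and Gas6). The share of all genes at that limit is not given, so such counts have no background. Without the fold limit 2.90% of all genes passed. At 6 weeks 1 was called (Mrc1) with library totals, in DESeq2 and without the 3 libraries with markers of other tissues. The count was 0 to 1 when each library was left out. Mrc1 alone passed an unadjusted p under 0.05 with the same fold limit, and without the fold limit 8.81% of all genes passed. DEGs over all genes at 6 weeks were 41 in the main fit, 83 with library totals, 328 in DESeq2 and 180 without the 3 libraries. They were 18 in limma, and 0 when replicate 1 or 2 of Control_6w or replicate 3 or 4 of IRR_6w was left out. At an unadjusted p under 0.05 with the fold limit, 2 passed between IRR_6w and IRR_1d (Timd4 and Gas6) and 1 in the change in effect (Gas6). Without the fold limit 5.79% and 3.14% of all genes passed. The score difference at 1 day moved from 0.51 to 0.01 with Csf1r, Adgre1, Cd68 and Fcgr1 as the general list. The causes were not tested.

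Signs changed without the 3 libraries for Igf1 at 1 day (-0.39), Cd163 between controls (0.14) and the change in effect of Cbr2 (0.00), and with library totals for F13a1 (0.12) and Pf4 (0.16) between IRR_6w and IRR_1d. Library totals in place of TMM moved the median change over all genes, as log2, from -0.09 to 0.14 at 6 weeks, from 0.06 to 0.14 at 1 day, from 0.12 to 0.28 between controls and from -0.02 to 0.30 between irradiated groups. Leaving out each library gave ranges that crossed 0 at 1 day for Cd163 (-0.30 to 0.18), F13a1 (-0.04 to 0.58) and Igf1 (-0.38 to 0.73), and at 6 weeks for Folr2 (-0.25 to 1.51). Between controls they crossed 0 for Cd163 (-0.28 to 0.17), Folr2 (-0.80 to 0.99), Pf4 (-0.08 to 0.99) and Gas6 (-0.03 to 0.42). Between irradiated groups they did for Folr2 (-1.17 to 0.08), Cbr2 (-0.07 to 0.48), Pf4 (-0.27 to 0.01) and Igf1 (-0.24 to 0.86), and in the change in effect for Folr2 (-1.25 to 0.54) and Cbr2 (-0.50 to 0.13).

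Same-numbered libraries of different groups did not deviate together (median r -0.03, 3 of 19 pairs over 0.1), and 2 of 14 libraries correlated best with their own number. With the replicate block 0 markers were called in each comparison, Folr2 between controls turned to -0.52, and DEGs over all genes went from 41 to 15 at 6 weeks and from 4 to 1 at 1 day. The fit on only the groups compared was not run for the change in effect. Low counts limit Timd4 (0 to 205 counts) and Folr2 (0 to 165 counts) most. Their values of 0 were in IRR_6w replicate 4 and Control_1d replicate 1, which held many empty genes, and the part of depth was not tested.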
